A study of Mus musculus with 2 samples.

Results

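The Id genes Id1, Id2, Id3 and Id4 were examined in dermal fibroblast-lineage cells of mouse skin, either left untreated (UT) or inflamed with imiquimod (IMQ). These 4 genes, of 31053 listed in the files, were matched by symbol, and the family was chosen on earlier values of the same UT and IMQ libraries, in which Id3 was among the genes with the highest ratio. Their ratios are therefore given as a description, with no test. Both libraries came from 8-week-old C57BL/6 mice of genotype PdgfraDreER-tdTomato, in which tamoxifen activates a recombinase in Pdgfra-expressing cells and marks these cells and their descendants with tdTomato. Dermal live cells negative for CD45 and positive for tdTomato were sorted, from skin left untreated or from skin given IMQ, a Toll-like receptor agonist that causes psoriasiform inflammation, for 7 days. There was 1 library per group, so the spread between animals is unknown, and whether animals were pooled was not given in the sources used here. All intervals below are 95% and cover counting error only.

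Id proteins are helix-loop-helix proteins without a DNA-binding region. They pair with E proteins and related bHLH factors and keep them off DNA, and they are known for holding back differentiation in many lineages. Bone morphogenetic proteins (BMPs) bind paired serine/threonine kinase receptors, the receptors phosphorylate Smad1, Smad5 and Smad9, and these move with Smad4 to the nucleus, where Id1, Id2 and Id3 are among the classical target genes. In skin, BMP signalling is known from the hair follicle cycle and from the specification of dermal and adipose cells, and Id genes also respond to growth factors and other stimuli.

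Id1 (ENSMUSG00000042745) lies at chr2:152736251-152737410 on the plus strand, Id2 (ENSMUSG00000020644) at chr12:25093799-25097140 on the minus strand, Id3 (ENSMUSG00000007872) at chr4:136143497-136145755 on the plus strand and Id4 (ENSMUSG00000021379) at chr13:48261228-48266026 on the plus strand of GRCm38, in GENCODE M21. Id1, Id2 and Id3 overlapped no other annotated gene. Id4 overlaps A330033J07Rik and Gm49291 on the other strand, and whether the counting used strand was not given in the sources used here.

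RefSeq promoter windows on GRCm38.p6, from 250 bases before to 50 bases after the start, matched Id2, Id3 and Id4. They are shown because Id3 was the member whose level differed between the libraries under the gene and mitochondrial limits given below. Under these limits the intervals of Id2 and Id4 covered no difference. Over all deposited barcodes the Id3 interval covered no difference, while that of Id2 did not. The windows are written 5′ to 3′ on the strand of the gene, at chr4:136143572-136143871 (plus strand) for Id3, chr12:25096043-25096342 (minus strand) for Id2 and chr13:48260866-48261165 (plus strand) for Id4. Capitals mark GGCGCC, a GC-rich palindrome that BMP Smads can bind, and CANNTG, the E-box bound by the bHLH factors that Id proteins sequester.
Id3: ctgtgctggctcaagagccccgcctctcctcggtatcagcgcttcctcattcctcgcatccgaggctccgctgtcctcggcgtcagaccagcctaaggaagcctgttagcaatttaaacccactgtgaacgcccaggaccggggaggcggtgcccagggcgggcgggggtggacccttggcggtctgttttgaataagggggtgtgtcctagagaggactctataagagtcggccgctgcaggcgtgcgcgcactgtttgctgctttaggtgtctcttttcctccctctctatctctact
Id2: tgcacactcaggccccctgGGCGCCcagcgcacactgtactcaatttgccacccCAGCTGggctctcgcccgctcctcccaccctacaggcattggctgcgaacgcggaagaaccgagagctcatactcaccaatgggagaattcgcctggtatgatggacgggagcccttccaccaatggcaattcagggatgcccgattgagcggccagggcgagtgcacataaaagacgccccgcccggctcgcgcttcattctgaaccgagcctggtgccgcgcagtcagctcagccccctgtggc
Id4: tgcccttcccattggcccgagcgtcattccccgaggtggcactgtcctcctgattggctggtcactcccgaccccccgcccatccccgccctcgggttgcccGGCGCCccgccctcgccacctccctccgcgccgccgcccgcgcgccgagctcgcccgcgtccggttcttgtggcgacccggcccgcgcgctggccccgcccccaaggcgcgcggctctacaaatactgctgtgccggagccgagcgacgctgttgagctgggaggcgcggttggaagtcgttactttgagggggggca

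The Id3 window held no GGCGCC and no CANNTG, the Id2 window held 1 of each, and the Id4 window held 1 GGCGCC. These windows do not cover sites further from the start. Of 32851 promoter windows of the same length, 11.9% held GGCGCC and 72.3% held CANNTG. The short Smad-binding sequence GTCT, or its reverse complement AGAC, occurred 3 times in the Id3 window, once in that of Id2 and not in that of Id4, and 88.0% of all windows held it. The GC content was 60.0% for Id3, 63.3% for Id2 and 73.3% for Id4.

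The libraries differed in quality before any Id gene was compared. Barcodes with 200 to 5000 detected genes and at most 5% mitochondrial UMIs (unique molecular identifiers, each a captured transcript) numbered 1045 of 1415 in UT and 571 of 5047 in IMQ, with 1104798 and 460947 UMIs, and are called kept barcodes below. Their median depth was 741 UMIs in UT and 659 in IMQ. The transcript Gm42418, which overlaps ribosomal RNA, took 1.38% of UMIs in UT and 14.6% in IMQ. Fibroblast markers (Col1a1, Col1a2, Col3a1, Dcn, Lum, Pdgfra and Pdgfrb) all had UMIs in both libraries and summed to 80818 CPM (UMIs of the gene per 1000000 UMIs of the library) in UT and 121712 CPM in IMQ. Of barcode names, 1 was shared between the libraries and none among kept barcodes. The study's methods give more filtered IMQ cells than the deposited IMQ matrix has barcodes, so the IMQ values describe the deposited matrix. For UT the study also gives more filtered cells than the filter used here left. Without a mitochondrial maximum, 1349 UT and 1425 IMQ barcodes remained, and the log2 ratio of Id3 was then 1.08 (0.82 to 1.33).

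Id3 was the most abundant member in both libraries and, among kept barcodes, the member whose level differed. In kept barcodes, 142 Id3 UMIs in UT gave 129 CPM (Poisson interval 108 to 151), and 183 in IMQ gave 397 CPM (342 to 459). The IMQ level lay above the UT level with no overlap of the intervals. As log2 of IMQ over UT this was 1.63 (exact conditional interval 1.30 to 1.95). Id3 ranked 107 of the 8129 genes with at least 10 UMIs, and its ratio was 2.23 above that of the median gene, which was at -0.61, both on a log2 scale with 1 CPM added.

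Id1 was low in both libraries, at 19.0 CPM in UT (11.8 to 29.1, 21 UMIs) and 28.2 CPM in IMQ (15.0 to 48.2, 13 UMIs). Its log2 ratio was 0.57 (-0.55 to 1.63), so the counts allowed no difference as well as a clear excess in IMQ. Id2 stood at 57.9 CPM in UT (44.6 to 74.0, 64 UMIs) and 47.7 CPM in IMQ (29.9 to 72.3, 22 UMIs), with a log2 ratio of -0.28 (-1.05 to 0.44). Id4, the member best known from the nervous system, had 10 UMIs in UT, 9.05 CPM (4.34 to 16.6), and 4 in IMQ, 8.68 CPM (2.36 to 22.2). Its log2 ratio was -0.06 (-2.19 to 1.73), and a difference was not detectable at this depth. TMM scaling and median-of-ratios scaling added 0.48 to every ratio, which turned the sign of the Id2 ratio and of the Id4 ratio. The ratios of Id1 and Id3 stayed above 0. The intervals of Id1, Id2 and Id4 still covered 0, and that of Id3 did not.

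In CPM the order of levels was Id3, Id2, Id1 and Id4 in both libraries. Since the 3′ kit counts each captured transcript at its end, these levels were not divided by length. The neighbours Id1 and Id4 overlapped in UT, while in IMQ the interval of Id1 overlapped those of Id2 and Id4. Summed over the family, the level was 215 CPM in UT (188 to 244) and 482 CPM in IMQ (420 to 549), and Id3 supplied 183 of the 222 IMQ UMIs. Of the 4 members, 1 was at least 2-fold higher in IMQ and 0 were at least 2-fold lower. Among all genes measured, 3.73% were at least 2-fold higher and 32% at least 2-fold lower, a background given for reading only, since the family was chosen on this contrast.

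**Figure D1:**
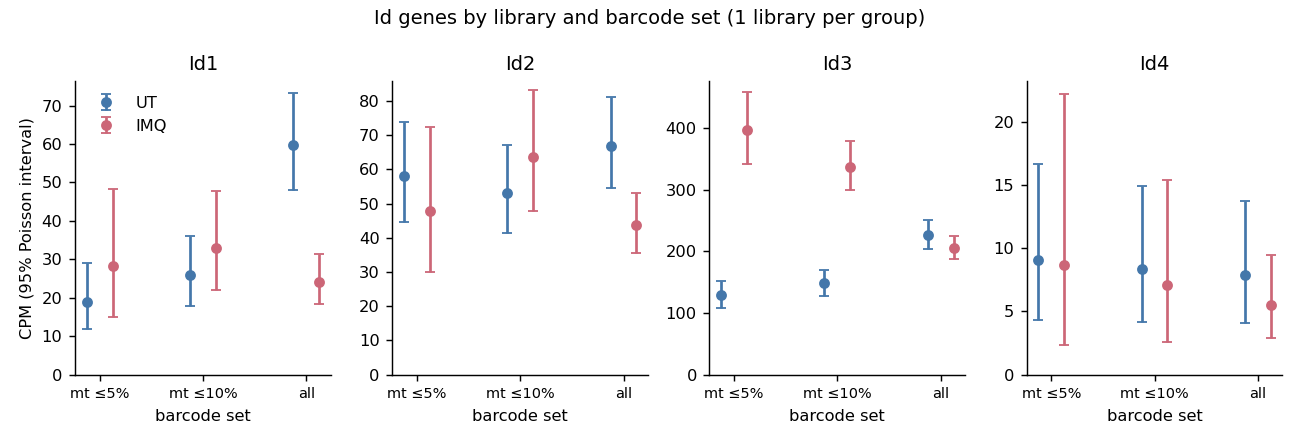
Level of each Id gene in CPM (y axis, from 0, scale differs between panels) in UT and IMQ for kept barcodes with at most 5% mitochondrial UMIs, at most 10%, and all deposited barcodes. Points are library sums with exact 95% Poisson intervals. Id3 was at 397 CPM in IMQ and 129 CPM in UT under the first filter, and at 206 and 226 CPM over all barcodes.

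The share of barcodes with a UMI gave the same picture for Id3. An Id3 UMI was found in 72 of 1045 kept UT barcodes, 6.89% (exact binomial interval 5.43% to 8.60%), and in 95 of 571 kept IMQ barcodes, 16.6% (13.7% to 19.95%). When every barcode was thinned to 400 UMIs, which left out 73 UT and 33 IMQ barcodes, the shares were 3.60% in UT (2.52% to 4.97%) and 10.8% in IMQ (8.29% to 13.7%). The intervals did not overlap before or after thinning. UMIs per positive barcode were 1.97 in UT and 1.93 in IMQ, while positive barcodes had a median of 1180 UMIs in UT and 666 in IMQ, so these values were not at matched depth. Among barcodes with over 1000 UMIs they were 2.67 and 2.93.

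For the other members the shares overlapped. Id1 was seen in 1.15% of kept UT barcodes (0.595% to 1.997%) and 1.58% of IMQ barcodes (0.723% to 2.97%). Id2 was seen in 4.69% (3.49% to 6.15%) and 3.15% (1.88% to 4.94%). Id4 was seen in 6 UT and 2 IMQ barcodes. After thinning, Id1 was left in 3 barcodes of each library, Id2 in 19 and 8, and Id4 in 1 and 0.

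**Figure D2:**
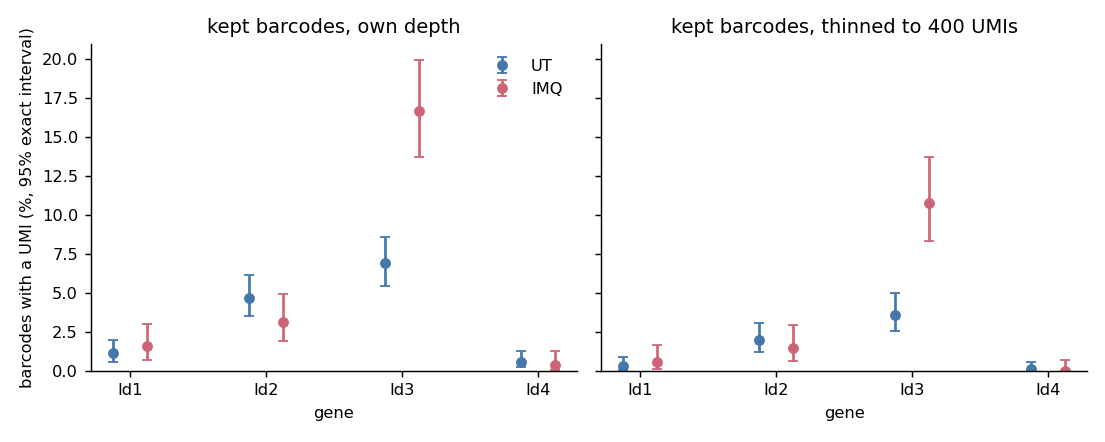
Percent of kept barcodes with at least 1 UMI of each Id gene (y axis) at their own depth (left) and thinned to 400 UMIs (right), with exact 95% binomial intervals. Id3 stood at 6.89% in UT and 16.6% in IMQ at own depth, and at 3.60% and 10.8% after thinning.

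Id3 was higher in IMQ at each depth examined. Among kept barcodes with more than 400 and up to 600 UMIs, Id3 was at 83.0 CPM in UT and 385 CPM in IMQ, with a log2 ratio of 2.21 (1.25 to 3.28). With more than 600 and up to 1000 UMIs it was at 90.1 and 230 CPM, with a log2 ratio of 1.35 (0.58 to 2.15), and with over 1000 UMIs at 156 and 494 CPM, 1.66 (1.23 to 2.08). Barcodes with 400 UMIs or fewer held 2 Id3 UMIs in UT and 17 in IMQ.

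The Id3 UMIs were spread over many barcodes. The barcode with the most Id3 held 15 of the 142 UMIs in UT and 14 of the 183 in IMQ, and the 5 highest held 35.2% and 25.1%. Of the 72 positive UT barcodes, 52 had 1 UMI, 9 had 2 and 11 had 3 or more. Of the 95 positive IMQ barcodes, 64 had 1, 15 had 2 and 16 had 3 or more. Without the top barcode of both libraries the log2 ratio was 1.69 (1.34 to 2.03).

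Free RNA gives UMIs to barcodes of any kind, so the level in barcodes with fewer than 200 genes was taken beside these values. In IMQ such barcodes numbered 3621 and held Id3 at 105 CPM (86.9 to 125), below the 397 CPM of kept barcodes, with a UMI in 2.90% of them. UT had 64 such barcodes with 1 Id3 UMI, too few for a comparison. Kept barcodes with at least 10 UMIs of class II antigen presentation genes, cells that should not belong to the lineage, numbered 2 in UT and 1 in IMQ and had no Id UMI, too few for a background share.

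Over all deposited barcodes the Id3 difference was not seen. Id3 was at 226 CPM in UT (203 to 252) and 206 CPM in IMQ (188 to 225), with a log2 ratio of -0.14 (-0.34 to 0.07). A single UT barcode with 124192 UMIs and 7997 genes held 136 of the 345 UT Id3 UMIs, 44 of the 91 Id1 UMIs and 28 of the 102 Id2 UMIs. It carried 2222 UMIs of keratinocyte markers, with all 6 of them seen, against 12 of fibroblast markers, and it fell outside the gene maximum. Without it the Id3 log2 ratio was 0.47 (0.23 to 0.71), and without the top barcode of both libraries 0.42 (0.18 to 0.66). The Id3 share of all deposited barcodes was 6.64% in UT and 6.18% in IMQ at own depth, where IMQ had a median of 355 UMIs, and 3.21% (2.32% to 4.33%) and 6.38% (5.38% to 7.50%) after thinning. In this set 1.91% of genes were at least 2-fold higher in IMQ and 47.9% at least 2-fold lower, and of the 4 Id genes only Id1 was among the latter.

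Over all deposited barcodes Id1 was at 59.7 CPM in UT (48.1 to 73.3) and 24.2 CPM in IMQ (18.3 to 31.3), with a log2 ratio of -1.30 (-1.81 to -0.81). Without that UT barcode it was -0.47 (-1.06 to 0.11), and without the top barcode of both libraries -0.68 (-1.29 to -0.07). Id2 was at 66.9 CPM in UT (54.6 to 81.2) and 43.7 CPM in IMQ (35.6 to 53.0), with a log2 ratio of -0.62 (-1.02 to -0.21), and without the barcode -0.28 (-0.72 to 0.18). Id4 was at 7.87 CPM in UT and 5.51 CPM in IMQ.

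With a mitochondrial maximum of 10%, which kept 1301 UT and 1043 IMQ barcodes, Id3 was at 148 CPM in UT (128 to 170) and 338 CPM in IMQ (300 to 379), with a log2 ratio of 1.19 (0.92 to 1.46). The shares were 6.84% and 14.7%. Id1 had a log2 ratio of 0.36 (-0.42 to 1.12), Id2 of 0.26 (-0.28 to 0.79) and Id4 of -0.24 (-1.96 to 1.32). Here 3.33% of all genes were at least 2-fold higher in IMQ, Id3 among them, and 32.3% at least 2-fold lower, with none of the Id genes among them. The barcodes added by this filter, those with 5% to 10% mitochondrial UMIs, held Id3 at 250 CPM in UT (187 to 327) and 267 CPM in IMQ (218 to 323), with overlapping intervals. Of the 53 Id3 UMIs that UT had in this range, 20 lay in 1 barcode.

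Cells of other types were among the strongest carriers of Id genes. With the 10% maximum, the IMQ barcode with the most Id3, 19 UMIs, also had the most Id1, 8 UMIs, and it carried all 6 blood endothelial markers with 65 UMIs. The 1 kept UT barcode with at least 10 UMIs of these markers held 11 Id3 and 3 Id1 UMIs, and the 2 kept UT barcodes with at least 10 keratinocyte marker UMIs held 9 Id3 and 4 Id1 UMIs. Kept IMQ barcodes included none of either kind. Summed over all kept barcodes with an Id3 UMI, few of which carried them, there were keratinocyte markers at 9083 CPM in UT and 36.7 CPM in IMQ, and blood endothelial markers at 279 and 9.18 CPM. Of the 72 UT barcodes with Id3, 6 had 2 or more keratinocyte marker UMIs and 1 had 2 or more blood endothelial marker UMIs. In barcodes without Id3 they were at 61.6 and 8.52 CPM for keratinocyte and at 0 and 25.6 CPM for blood endothelial markers. All 6 blood endothelial markers were seen in Id3-positive UT barcodes and 1 of 6 in those of IMQ, and for keratinocyte markers 5 of 6 and 2 of 6. Restricting the comparison to barcodes with at least 2 fibroblast markers gave an Id3 log2 ratio of 1.74 (1.40 to 2.08), leaving out keratinocyte-marker barcodes gave 1.66 (1.33 to 1.99), and leaving out barcodes with at least 2 vascular marker UMIs gave 1.76 (1.43 to 2.11).

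As a share of pooled UMIs, nuclear RNA also differed between the Id3-positive barcodes and the rest. Malat1, a noncoding RNA retained in the nucleus, took 1.82% of the UMIs of Id3-positive IMQ barcodes and 0.00909% of those without Id3. In UT it took 3.32% and 1.08%. Of the 2010 Malat1 UMIs of kept IMQ barcodes, 1978 lay in barcodes with Id3, and 5 of the 6 IMQ barcodes with at least 10 Malat1 UMIs had Id3, as had 14 of 33 in UT. The barcodes with at least 10 Malat1 UMIs were deep, with a median of 3648 UMIs in UT and 6500 in IMQ. Their fibroblast markers were at 18205 CPM in UT and 21363 CPM in IMQ, against 92926 and 130562 CPM in the other kept barcodes, and the part of this in the Id levels was not tested. The other 565 IMQ barcodes held 149 of the 183 Id3 UMIs. Most barcodes with Id3, 90 of 95 in IMQ and 58 of 72 in UT, had fewer than 10 Malat1 UMIs.

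Barcodes with fewer than 10 Malat1 UMIs, a division made after the values were seen, held Id3 at 79.9 CPM in UT (62.8 to 100) and 352 CPM in IMQ (298 to 413). The log2 ratio was 2.14 (1.73 to 2.56). Id1 in these barcodes was at 6.48 CPM in UT (2.38 to 14.1, 6 UMIs) and 30.7 CPM in IMQ (16.3 to 52.5, 13 UMIs), with a log2 ratio of 2.24 (0.75 to 3.93). Id2 was at 54.0 and 47.2 CPM, with a log2 ratio of -0.19 (-1.02 to 0.58). In barcodes with at least 10 Malat1 UMIs, Id3 was at 380 CPM in UT (295 to 482) and 910 CPM in IMQ (630 to 1272), with a log2 ratio of 1.26 (0.62 to 1.88). Of the UT UMIs, these 33 barcodes held 71.4% for Id1, 47.9% for Id3, 90.0% for Id4 and 21.9% for Id2.

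**Figure D3:**
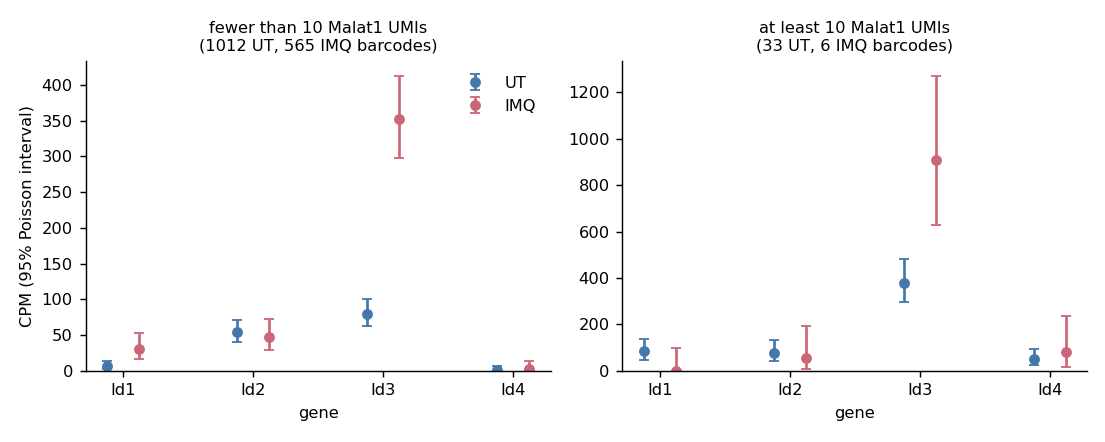
Level of each Id gene in CPM (y axis, from 0, scale differs between panels) in kept barcodes with fewer than 10 Malat1 UMIs (left) and with at least 10 (right), with exact 95% Poisson intervals. Id3 was at 352 CPM in IMQ and 79.9 CPM in UT on the left, and at 910 and 380 CPM on the right, where IMQ had 6 barcodes.

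Most kept barcodes had no Id UMI at all, 928 of 1045 in UT and 463 of 571 in IMQ. A single Id gene was seen in 99 and 93 barcodes, 2 of the genes in 15 and 14, 3 in 2 and 1, and all 4 in 1 and 0. The pair seen together most often was Id2 and Id3, in 12 UT barcodes where 3.38 would be expected from their separate shares, and in 11 IMQ barcodes where 2.99 would be expected. The ratio of observed to expected was 3.55 in UT (1.84 to 6.21) and 3.67 in IMQ (1.83 to 6.57), with the expected number taken as fixed. Id1 and Id3 were seen together in 4 barcodes of each library, 4.84 times the expected number in UT (1.32 to 12.4) and 2.67 times in IMQ (0.73 to 6.84). Id1 and Id2 shared 5 UT barcodes and 1 IMQ barcode.

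Deep barcodes are more likely to hold both genes of a pair, and thinning left few of these barcodes. At 400 UMIs, Id2 and Id3 were together in 3 UT and 2 IMQ barcodes, against 0.684 and 0.862 expected, with intervals that covered a ratio of 1. Id1 and Id3 were together in 1 UT and 0 IMQ barcodes. Among barcodes with fewer than 10 Malat1 UMIs, at their own depth, Id2 and Id3 were together in 8 UT barcodes, 3.32 times the expected number (1.43 to 6.55). In IMQ they were together in 10 barcodes, 3.69 times (1.77 to 6.79). Thinned to 400 UMIs, 2 such barcodes were left in each library, against 0.507 expected in UT and 0.842 in IMQ. Both intervals then covered a ratio of 1. Depth is shared by both genes of a pair, and beyond the thinned values its part was not tested.

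The genes most like Id1 and Id3 across barcodes were ranked by the lower of the library-wise log2 ratios of CPM between kept barcodes with an Id1 or Id3 UMI (80 in UT, 100 in IMQ) and those with neither. Of 1793 genes compared, the 10 highest were Fosb, Egr1, Tnfaip6, Dusp1, Pim1, Ccnl1, Nfkbia, Neat1, Midn and Cebpd. Fosb and Egr1, immediate early transcription factors, had log2 ratios of 3.61 and 3.33 in UT and 4.49 and 3.50 in IMQ, where 41 of 74 Fosb UMIs and 30 of 48 Egr1 UMIs in Id-positive barcodes came from single barcodes. Dusp1, a phosphatase that switches off MAP kinases, had 3.16 and 2.89, and Nfkbia, the inhibitor of NF-kB, had 2.61 and 3.20. Cebpd, a C/EBP transcription factor, had 2.58 and 2.51. Tnfaip6, which encodes a hyaluronan-binding protein, had 3.28 and 5.51, and 135 of its 151 UMIs in Id-positive IMQ barcodes came from 1 barcode. Neat1, a noncoding RNA of nuclear paraspeckles, had 2.57 and 6.57, and 34 of its 71 UMIs in Id-positive IMQ barcodes came from 1 barcode.

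In barcodes with fewer than 10 Malat1 UMIs most of these genes had too few UMIs to compare, and the ratios did not all keep their sign. Cebpd, with 50 UMIs in Id-positive UT barcodes and 38 in those of IMQ, had log2 ratios of 3.04 and 1.73. Dusp1 had 12 and 14 UMIs there, with log2 ratios of 2.09 and 0.66. Nfkbia had 14 and 4 UMIs, with log2 ratios of 1.28 in UT and -0.53 in IMQ. Tnfaip6 had 41 and 1 UMIs, with 3.85 in UT and -1.05 in IMQ. Fosb had 3 UMIs in each library, Egr1 5 in each, Pim1 6 and 2, Neat1 2 and 0, and Ccnl1 none in either. Immediate early genes together were at 11904 CPM in UT and 13680 CPM in IMQ in barcodes with at least 10 Malat1 UMIs, and at 340 and 491 CPM in the others.

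The BMP pathway around the Id genes was sparse in kept barcodes, and lists are described by members with at least 10 UMIs, with the median of all genes at -0.61 on the log2 scale with 1 CPM added. Each count below is to be read beside the share of all genes in the same set of barcodes. In kept barcodes 3.73% were at least 2-fold higher in IMQ and 32% at least 2-fold lower. With the 10% mitochondrial maximum these shares were 3.33% and 32.3%, with the median of all genes at -0.64. Over all deposited barcodes they were 1.91% and 47.9%, with that median at -0.96. Of 9 BMP ligands, 3 were measured in kept barcodes. Of these, 0 were at least 2-fold higher in IMQ and 2 at least 2-fold lower, with a median of -1.08. Bmp4, a ligand made by dermal papilla and dermal cells, was at 68.8 CPM in UT (76 UMIs) and 41.2 CPM in IMQ (19 UMIs), with a log2 ratio of -0.74 (-1.55 to 0.0012). Bmp7 was at 56.1 and 26.0 CPM, with a log2 ratio of -1.11 (-2.14 to -0.20). Bmp2 had 18 UMIs in 5 UT barcodes, 9 of them in a single barcode, and 0 in IMQ, and the interval of its log2 ratio ended at -0.88.

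Of 10 receptors and co-receptors, 7 were measured, 3 were at least 2-fold higher and 1 at least 2-fold lower, with a median of 0.08. With the 10% mitochondrial maximum 1 was higher and 1 lower, with a median of 0.31, and over all deposited barcodes 0 of 8 were higher and 3 lower, with a median of -0.51. Acvrl1, the type I receptor ALK1, was at 29.9 CPM in UT (33 UMIs) and 60.7 CPM in IMQ (28 UMIs), with a log2 ratio of 1.02 (0.24 to 1.80). Rgmb, a membrane-anchored BMP co-receptor, was at 14.5 and 36.9 CPM, with a log2 ratio of 1.35 (0.27 to 2.43). The third of these, its relative Rgma, had 6 and 7 UMIs, and its interval covered 0. Bmpr2, the type II BMP receptor, was at 60.6 and 21.7 CPM, with a log2 ratio of -1.48 (-2.61 to -0.52). Bmpr1a stood at 41.6 and 30.4 CPM, with an interval that covered 0 (-1.43 to 0.43).

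Among the Smads, Smad1 had a log2 ratio of -0.0019 (-1.23 to 1.12) and Smad5 of 0.26 (-1.08 to 1.49), Smad9 had no UMI, and Smad4 was at 55.2 CPM in UT and 30.4 CPM in IMQ, with a log2 ratio of -0.86 (-1.82 to -0.0075). None of the 3 measured was past 2-fold. Among extracellular antagonists and modulators, Grem1, a secreted BMP antagonist, was at 95.04 and 71.6 CPM, -0.41 (-1.02 to 0.17). For Sostdc1, a single UT barcode held 35 of 41 UMIs, and IMQ had 1 UMI.

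Of 8 further BMP targets, 3 had at least 10 UMIs in kept barcodes and none was past 2-fold, with a median of 0.33. With the 10% maximum 4 were measured and none was past 2-fold, with a median of -0.08. Over all deposited barcodes 0 of 4 were at least 2-fold higher and 2 at least 2-fold lower, with a median of -0.90. In kept barcodes Hes1 was at 51.6 CPM in UT (57 UMIs) and 65.1 CPM in IMQ (30 UMIs), with a log2 ratio of 0.34 (-0.35 to 0.997). Bambi, a decoy receptor, had 13 and 9 UMIs, and Smad7, an inhibitory Smad, had 16 and 5. Both intervals covered 0. Smad6 had 5 and 2 UMIs, and Msx1, Msx2, Atoh8 and Hey1 had at most 2 in either library. Of 4 TGF-beta targets, 0 were at least 2-fold higher and 1 at least 2-fold lower (0 with the 10% maximum and over all deposited barcodes), and Tgfbi, the only abundant one, was at 1792 and 1733 CPM.

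The bHLH factors with which Id proteins pair were all measured. In kept barcodes none of the 5 was at least 2-fold higher and 1 was at least 2-fold lower. Their median was -0.47 beside -0.61 for all genes, of which 32% were at least 2-fold lower. With the 10% maximum 1 was lower, with a median of -0.72 beside -0.64 for all genes. Over all deposited barcodes 4 were lower, beside 47.9% of all genes, with a median of -1.26 beside -0.96. Tcf4, an E protein, was at 289 CPM in kept UT barcodes (319 UMIs) and 115 CPM in those of IMQ (53 UMIs). Its log2 ratio was -1.33 (-1.78 to -0.91). Tcf3 and Tcf12, the other E proteins, had -0.50 (-1.69 to 0.55) and -0.19 (-1.03 to 0.59). Twist1, a mesenchymal bHLH factor, was at 310 and 223 CPM, -0.47 (-0.81 to -0.15), and Twist2 had -0.37 (-1.03 to 0.25). In these libraries Id3 in IMQ, at 397 CPM, was above each of these partners, while in UT, at 129 CPM, it was below Tcf4 and Twist1.

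Of the 8 immediate early genes, none was at least 2-fold higher and 4 were at least 2-fold lower in IMQ, with a median of -0.93. Over all deposited barcodes all 8 were at least 2-fold lower, with a median of -2.37. Of the UT UMIs, single barcodes held 1694 of 2446 for Fos, 1343 of 1524 for Atf3 and 1100 of 1599 for Jun. They held 373 of 597 for Fosb, 189 of 337 for Ier2, 382 of 776 for Egr1 and 179 of 371 for Zfp36. The list was not taken without such barcodes. Fos was at 600 CPM in UT and 299 CPM in IMQ, and Junb at 375 and 603 CPM. The log2 ratio of Junb was 0.69 (0.46 to 0.91), with 78 of its 278 IMQ UMIs in a single barcode. With the 10% maximum it was 0.06 (-0.14 to 0.27). Over all deposited barcodes it was -1.81 (-1.95 to -1.68), where a single UT barcode held 946 of the 1459 UT UMIs. The other scalings moved the list values and the median of all genes alike by 0.48, which turned or brought to about 0 those just below 0, such as the median of the bHLH partners.

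**Figure D4:**
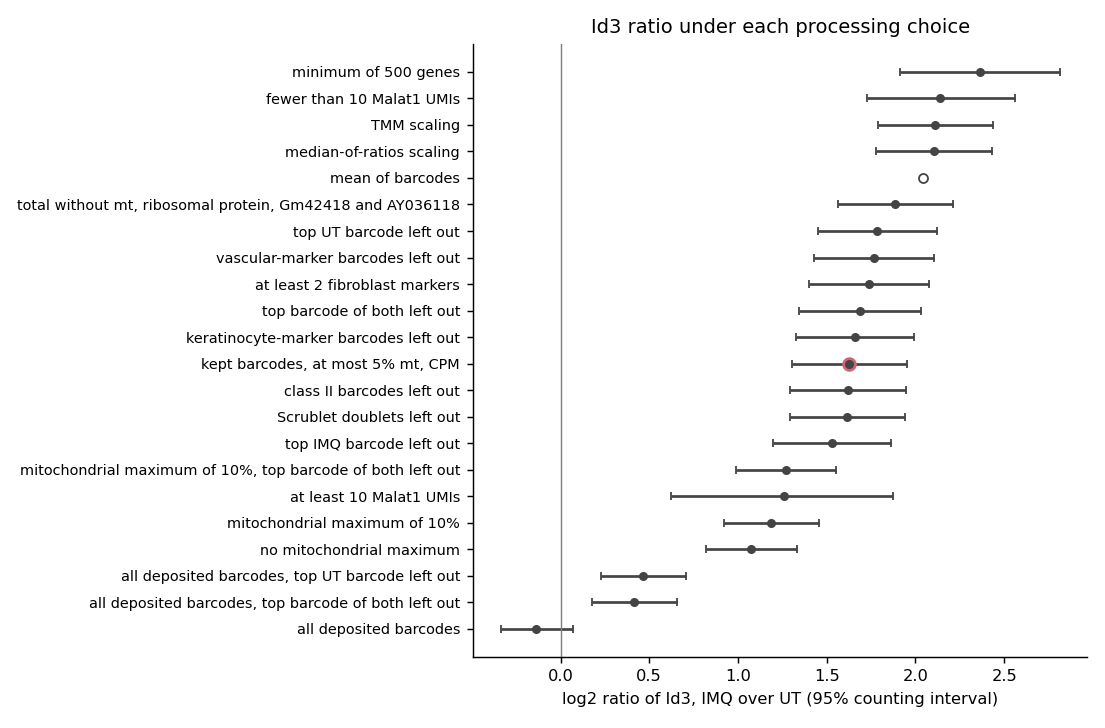
Log2 ratio of Id3, IMQ over UT (x axis), under each processing choice (y axis), with exact 95% counting intervals. The point ringed in red is the value in kept barcodes, 1.63, and the open point, the mean over barcodes, has no interval. Values ran from -0.14 over all deposited barcodes to 2.36 with a minimum of 500 genes.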

How the data were processed

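Single-cell RNA-seq libraries were made with the Chromium 3′ v3 kit. The authors deposited raw UMI counts per gene and barcode from Cell Ranger (3.0.0 for UT and 3.1.0 for IMQ, per the file headers, build mm10 per the labels), with no normalization. Of 31053 gene identifiers, 30934 were found in GENCODE M21. Gene and mitochondrial limits were those in the study's methods, although they left fewer UT barcodes than the study kept. The study's sort excluded doublets before the libraries were made, and doublets predicted among barcodes were later removed with DoubletFinder. Here no predicted doublets were removed, and Scrublet (scanpy 1.11.5) served as an alternative.

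Counts were summed per library and divided by total UMIs (CPM). Intervals were exact Poisson (sums), Clopper-Pearson (shares) and conditional binomial (ratios), at 95%, with scipy 1.17.1. No test was possible without replicate libraries. The ratio step was tested on simulated data. Alternatives covered filters, top barcodes, scaling (TMM in edgeR 4.0.16), marker-defined barcodes and thinning. Medians of lists used genes with at least 10 UMIs and 1 CPM added, with at least 2-fold as the limit. Named genes were the Id genes, pathway list members with at least 10 UMIs (members below that were named after their values were seen), and the 10 genes most like Id1 and Id3 with at least 20 UMIs per library, ribosomal protein and mitochondrial genes left out. The Id genes and all lists were chosen with earlier results of these data known. The divisions by Malat1, keratinocyte and vascular markers, the removal of the mitochondrial maximum, and all deposited barcodes without the top UT barcode were added after the data were seen. Depth strata and comparisons by Id3 were also chosen then. A member of the antagonist list, and the counts and median of that list, are not reported here.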

Additional observations from a re-analysis of the deposited data

How the results depend on the processing

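The Id3 log2 ratio of 1.63 in kept barcodes stayed above 0 in 20 of 21 alternatives, and the interval lay above 0 in 19 of the 20 that had one. It was 2.36 with a minimum of 500 genes, 2.11 with TMM scaling, 2.10 with median-of-ratios scaling, 2.04 as a mean of barcodes, 2.14 with fewer than 10 Malat1 UMIs and 1.26 with at least 10. It was 1.19 with a mitochondrial maximum of 10%, 1.27 with that maximum and without the top barcode of both libraries, and 1.08 with no mitochondrial maximum. Over all deposited barcodes it was -0.14, or 0.47 without the top UT barcode and 0.42 without that of both libraries. The family sum, 1.17 in kept barcodes, was 1.88 with 500 genes, 1.65 with TMM, 1.64 with median-of-ratios, 1.65 as a mean of barcodes, 1.61 and 0.82 with fewer than and at least 10 Malat1 UMIs, 0.78 with no mitochondrial maximum, and -0.37 over all deposited barcodes, 0.20 without the top UT barcode and 0.14 without that of both. The Id1 ratio of 0.57 was 2.24 as a mean of barcodes and 2.24 with fewer than 10 Malat1 UMIs, and -1.30 over all deposited barcodes or -0.68 without the top barcode of both. The Id2 ratio of -0.28 was 0.77 with 500 genes. The Id4 ratio stayed within its interval in all 20 alternatives that could be computed. The difference in share, IMQ minus UT, was 9.75 percentage points for Id3 in kept barcodes, -0.46 over all deposited barcodes and 3.17 over these after thinning, and for Id1 it was 0.43 and -0.75 over all deposited barcodes. Id1 and Id3 shared 0 times the expected IMQ barcodes after thinning. Over all deposited barcodes, leaving out the UT barcode rich in keratinocyte markers moved the Id3 ratio from -0.14 to 0.47, against 1.63 in kept barcodes. The cause of the movements listed here was not tested. No paired analysis was possible because there was 1 library per group, and for the same reason no replicate could be left out. Depth limits Id1 and Id4 most, with at most 21 UMIs per library in kept barcodes. Id1 with at least 10 Malat1 UMIs had 0 UMIs in IMQ, and Id4 with fewer than 10 had 1 in each library, so no ratio was computed.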

Other observations

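In barcodes with 5% to 10% mitochondrial UMIs, Id2 was at 28.3 CPM in UT (10.4 to 61.6, 6 UMIs in 2 barcodes) and 82.8 CPM in IMQ (56.7 to 117, 32 UMIs in 25 barcodes), with a log2 ratio of 1.55 (0.27 to 3.097). Id3 had 0.09 (-0.40 to 0.60) there, with overlapping intervals. The stratum was picked from several after its values were seen. The single IMQ barcode with over 5000 genes held 11 Id2, 7 Id3 and 3 Id1 UMIs among 48937, with 17 fibroblast marker UMIs and 0 blood endothelial ones. The barcode with the most Id4 in UT held 4 of the 10 UMIs, and that in IMQ held 3 of 4 together with 14 Id3 UMIs and all 7 fibroblast markers.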
